A study of Mus musculus with 10 samples.

Results

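Chemokines are small secreted proteins that steer cell movement, and in mouse tumors driven by YAP1 fusion or activated YAP1 their genes and receptor genes were measured by RNA-seq in 10 libraries. Members were all genes in the deposited files whose symbols follow the naming pattern of CC, CXC, CX3C and XC chemokines (with PF4), of their receptors and of the atypical receptors (ACKR). The pattern found 56 of 16895 genes, namely 34 ligands, 18 receptors and 4 atypical receptors. Symbols are in human form although the tissue is mouse, and 52 of the 56 match 1 protein-coding mouse gene by name, the exceptions being CCL21, CCL23, CCL27 and CXCL11.

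Tumors carried NLS-2SA-YAP1 (n = 3), per its name a YAP1 with a nuclear localisation signal and 2 serine-to-alanine changes, or YAP1-MAML2-v2 (n = 7), a fusion of YAP1 with MAML2. Each was delivered by an avian RCAS retrovirus, produced by DF1 chicken fibroblast cells injected into the subarachnoid space of newborn mice. Every mouse, in both groups, was null for Cdkn2a and expressed tv-a, the receptor for the virus, under the Nestin promoter, so infection was limited to cells in which that promoter is or was active. The labels give the cell type of every sample as DF1, although the RNA came from frozen tumor tissue. By source region, NLS-2SA-YAP1 replicate 1 and YAP1-MAML2-v2 replicates 2 and 6 were extra axial (n = 3). NLS-2SA-YAP1 replicates 2 and 3 and YAP1-MAML2-v2 replicates 1, 3, 4 and 5 were extra cranial (n = 6). YAP1-MAML2-v2 replicate 7 was intra ventricular (n = 1) and gives values only. The sources used here give no age at collection, and normal tissue was not analysed here. Nothing in the labels says that replicates came from separate animals, so p-values measure only the spread between these samples.

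Most chemokines bind receptors coupled to Gi proteins on leukocytes, and one receptor often takes several ligands. Inflammatory chemokines are induced by cytokines and microbial products and recruit neutrophils, monocytes or effector T cells, whereas homeostatic ones such as CXCL12 are made constantly and place cells within tissues. Atypical receptors bind chemokines without Gi signaling and take them up or carry them across cells.

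Deposited values are whole numbers but not plain read counts, since genes deposited at 1 outnumber those at 2 by a factor of 4.54 to 6.82 within libraries. They sum to between 28001143 and 44544314 per library, and the sequencing depth behind them is unknown. Levels below are CPM, the deposited value scaled to a common library total after each total was adjusted by the TMM scaling named under processing. For 12 of the 56 members the deposited value was 0 or 1 in at least 1 library and above 100 in at least 1 other, and a fold across such a gap cannot be interpreted. As a sum, a list of macrophage marker genes (11 of 12 genes in the files) was present in every library. The macrophage list summed to between 656.5 and 1174 CPM in NLS-2SA-YAP1 tumors and between 702 and 2621 CPM in YAP1-MAML2-v2 tumors. One of its defining genes, CD68, stood at only 0.0239 to 0.659 CPM although C1QA reached 64.5 to 499 CPM.

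No chemokine or receptor gene passed the test between constructs. Of the 42 members abundant enough to test, 0 had an adjusted p under 0.05 in edgeR's quasi-likelihood test (Benjamini-Hochberg over 13707 genes), where 0.0146% of all genes did, and 0 did in limma. At an unadjusted p under 0.05 there were 3 members (7.14%), against 13.1% of all genes tested. DESeq2 called 1 member, CXCL1, against 5.3% of all genes. Fitted values were higher in NLS-2SA-YAP1 tumors for 17 members and lower for 25. The median log2 fold change was -0.187, against -0.0321 over all genes. Among ligands 8 were higher and 16 lower (median -0.53), and among receptors, atypical ones included, 9 were higher and 9 lower (median -0.04). In 0 of the 42 members did the groups fail to overlap, while the groups were apart in 3.71% of all genes with NLS-2SA-YAP1 higher and in 3.01% with it lower.

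**Figure D1:**
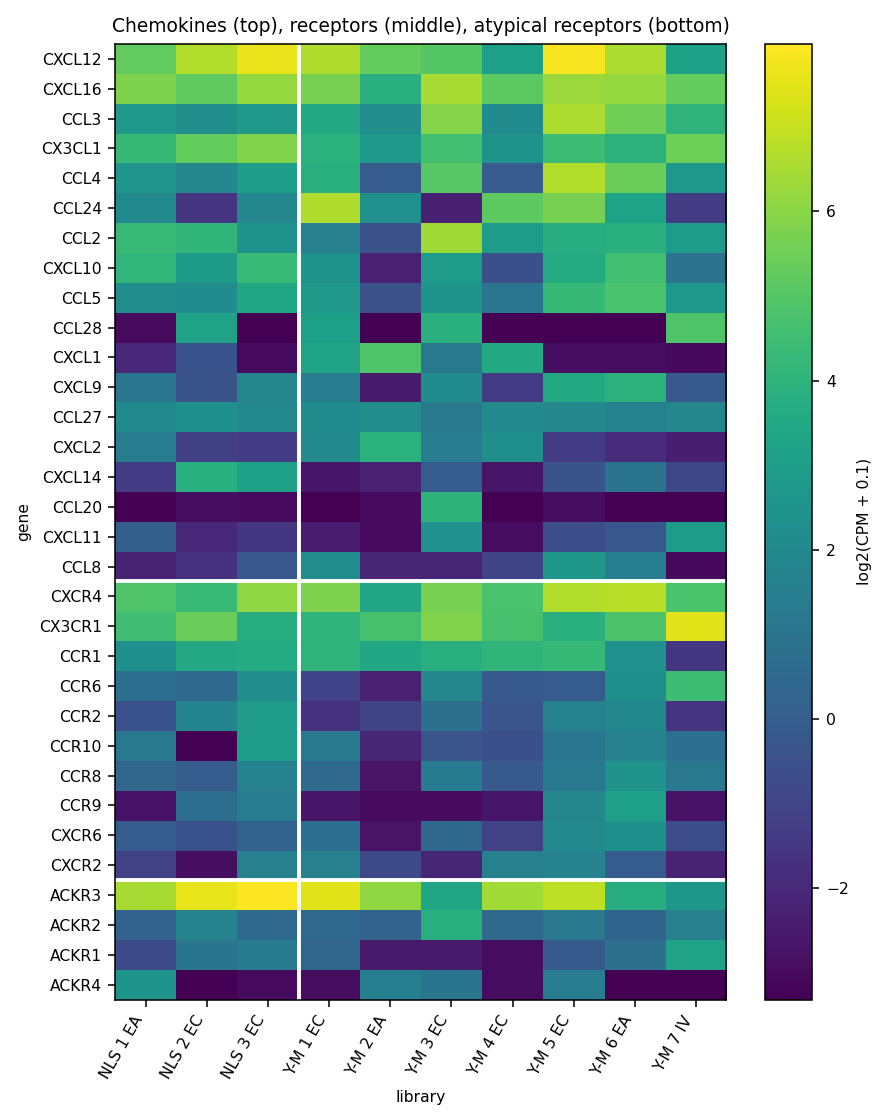
Levels of 32 of the 33 members with a mean of at least 1 CPM (rows, on the scale log2 of CPM plus 0.1) in each of the 10 libraries (columns), with the NLS-2SA-YAP1 libraries (NLS) left of the YAP1-MAML2-v2 libraries (Y-M) and the region as EA (extra axial), EC (extra cranial) or IV (intra ventricular). Several inflammatory ligands are highest in a single YAP1-MAML2-v2 library, such as CCL2 and CCL20 in replicate 3 and CXCL1 and CXCL2 in replicate 2.

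**Figure D2:**
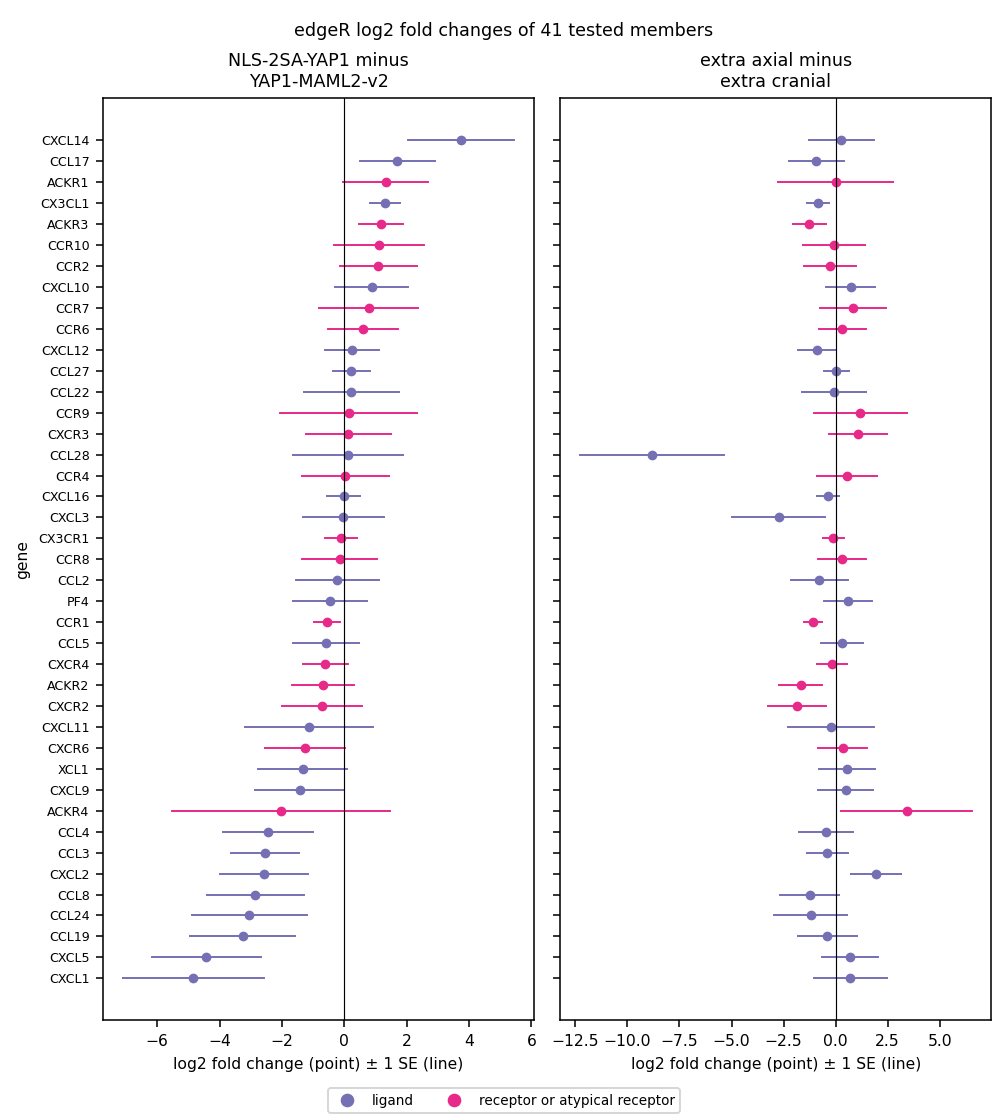
Log2 fold changes of NLS-2SA-YAP1 over YAP1-MAML2-v2 (left panel) and of extra axial over extra cranial (right panel) for 41 of the 42 members tested, with lines of 1 standard error of the edgeR fit to either side and color for ligand or receptor. Adjusted p-values in the left panel lie between 0.302 and 0.996, those in the right panel are all 1.0, and the long lines of ACKR4, CXCL1 and CCR9 belong to genes deposited at 0 or 1 in some libraries.

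The library with the highest value differed from member to member. Of the 33 members with a mean of at least 1 CPM, 7 were highest in YAP1-MAML2-v2 replicate 5, 7 in replicate 6, 5 in replicate 7 and 4 in replicate 3. Of the NLS-2SA-YAP1 libraries, replicate 3 was highest for 4 members, replicate 2 for 2 and replicate 1 for 1. YAP1-MAML2-v2 replicate 2 was the lowest library for 12 members. No share over all genes is given beside these counts. Scaled to merged exon length, the most abundant ligand among those with a length was a different gene in different tumors. It was CXCL16 in NLS-2SA-YAP1 replicate 1 (18.2 CPM per kb), CCL2 in replicate 2 (14.7) and CXCL12 in replicate 3 (24.0). In YAP1-MAML2-v2 tumors it was CCL24 in replicates 1 and 4 (76.6 and 27.6 CPM per kb), CXCL1 in replicate 2 (15.4), CCL3 in replicates 3 and 7 (78.5 and 21.4) and CCL4 in replicates 5 and 6 (154.3 and 65.5). On the same scale the most abundant receptor was CXCR4 in 8 libraries and CX3CR1, the fractalkine receptor, in YAP1-MAML2-v2 replicates 2 and 7.

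The promoters of 3 inducible ligands are shown: CXCL1 as the member called by DESeq2, CXCL2 because it was highest in the same tumor, and CXCL10 as an interferon-induced ligand. Each run is the 250 bases before the start site of the mouse gene (RefSeq, GRCm38.p6), 5′ to 3′ on the gene's strand, at chr5:90890995-90891244 (plus strand) for Cxcl1, chr5:90903649-90903898 (plus strand) for Cxcl2 and chr5:92348890-92349139 (minus strand) for Cxcl10. Capitals mark matches on either strand to an NF-kB motif (GGG and TTCC with any 3 bases between them) or an interferon response motif (TTTC and TTTC with any 2 bases between them).
Cxcl1: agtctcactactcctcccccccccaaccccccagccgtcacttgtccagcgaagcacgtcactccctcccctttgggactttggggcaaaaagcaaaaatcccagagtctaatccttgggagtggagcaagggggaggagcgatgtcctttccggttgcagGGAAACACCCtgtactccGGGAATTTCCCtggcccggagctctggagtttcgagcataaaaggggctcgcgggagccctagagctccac
Cxcl2: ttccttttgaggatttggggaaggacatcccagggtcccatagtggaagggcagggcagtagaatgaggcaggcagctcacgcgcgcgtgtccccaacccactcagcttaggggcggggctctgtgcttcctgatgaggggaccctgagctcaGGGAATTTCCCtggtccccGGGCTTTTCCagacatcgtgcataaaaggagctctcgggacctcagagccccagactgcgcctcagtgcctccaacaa
Cxcl10: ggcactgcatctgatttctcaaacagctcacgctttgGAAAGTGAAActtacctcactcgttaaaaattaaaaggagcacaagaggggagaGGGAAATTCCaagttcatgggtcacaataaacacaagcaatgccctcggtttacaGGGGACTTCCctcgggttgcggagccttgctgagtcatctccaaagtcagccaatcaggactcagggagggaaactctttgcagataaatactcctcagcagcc
In Cxcl1 the NF-kB matches begin 89 and 71 bases before the start site, and in Cxcl2 they begin 97 and 78 bases before it. Both genes hold the run GGGAATTTCCC, in which matches on the 2 strands overlap. In Cxcl10 the interferon motif begins 213 bases and the NF-kB matches 159 and 104 bases before the start. Of 40 member windows from 38 genes, 8 held the NF-kB motif (CCL1, CCL20, CCR3, CCR6, CXCL1, CXCL2, CXCL3 and CXCL10), against 4.65% of 32851 promoters, and 3 held the interferon motif (CCL19, CXCL10 and CXCL14), against 2.98%. Members outside those 38 genes, such as CCL2, CCL4, CCL5, CXCL5 and CXCL16, had no window among those searched. They cannot be said to lack either motif. A match describes letters only.

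CXCL1, CXCL2, CXCL3 and CXCL5 are neutrophil attractants that act through CXCR2. CXCL1 stood at 0.144, 0.615 and 0.0251 CPM in NLS-2SA-YAP1 replicates 1 to 3, against 0.0237 to 28.9 CPM in YAP1-MAML2-v2 tumors (median 2.18). CXCL2 stood at 2.58, 0.342 and 0.302 CPM in NLS-2SA-YAP1 tumors, against 0.0947 to 14.97 CPM in YAP1-MAML2-v2 tumors (median 2.61). CXCL5 stood at 0.0479, 0.0342 and 0.0251 CPM in NLS-2SA-YAP1 tumors, against 0.0237 to 2.23 CPM in YAP1-MAML2-v2 tumors (median 0.397). The 4 highest libraries were the same for all 3 ligands, YAP1-MAML2-v2 replicates 1 to 4, with replicate 2 highest, while replicates 5 to 7 lay among or below the NLS-2SA-YAP1 tumors, so the groups overlapped. CXCL3 was high elsewhere too, with 0, 0.0342 and 2.66 CPM in NLS-2SA-YAP1 tumors, against 0 to 1.45 CPM in YAP1-MAML2-v2 tumors. The receptor CXCR2 stood at 0.359, 0.0342 and 2.92 CPM in NLS-2SA-YAP1 tumors, against 0.118 to 3.17 CPM in YAP1-MAML2-v2 tumors (median 0.871). CXCR2 and its ligands did not peak together, since YAP1-MAML2-v2 replicate 2, highest for CXCL1, CXCL2 and CXCL5, had 0.472 CPM of CXCR2.

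The fitted log2 fold change of CXCL5 was -4.42 ± 1.75 (SE, edgeR unadjusted p = 0.0304, adjusted p = 0.331). That of CXCL1 was -4.85 ± 2.26 (edgeR adjusted p = 0.401), and DESeq2 gave -4.87 ± 1.51 with an adjusted p of 0.0312. Without YAP1-MAML2-v2 replicate 2 the CXCL1 value was -2.98. CXCL1 was deposited at 1 in 4 libraries and CXCL5 at 1 in 5, so neither fold should be read as a size. The neutrophil list (8 of 9 genes in the files, with CAMP at 0 throughout and ELANE never above 1) summed to 19.5 to 29.5 CPM in NLS-2SA-YAP1 tumors and 27.2 to 117 CPM in the YAP1-MAML2-v2 libraries. The sum did not follow 1 pattern, since its genes differed between libraries. CSF3R made up 101.4 of the 117 CPM in replicate 7, the highest sum, where CXCL1 and CXCL5 were deposited at 1. S100A9 stood at 0.0239, 2.77 and 0 CPM in NLS-2SA-YAP1 tumors, against 13.5, 16.7 and 9.95 CPM in YAP1-MAML2-v2 replicates 1, 2 and 4, the 3 highest libraries for CXCL1, and at most 0.0253 CPM in replicates 3, 5, 6 and 7. Other genes of the list had another order. S100A8 was highest in NLS-2SA-YAP1 replicate 1 (8.23 CPM) and stood at 0.684, 0.55 and 4.71 CPM in YAP1-MAML2-v2 replicates 1, 2 and 4. LCN2 was at most 0.0298 CPM in those replicates 1, 2 and 4, against 11.1 and 15.6 CPM in YAP1-MAML2-v2 replicates 3 and 7. The part of these neutrophil genes in the CXCR2 ligand values was not tested. In bulk tissue, fewer cells of a type and less RNA per cell cannot be told apart.

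**Figure D3:**
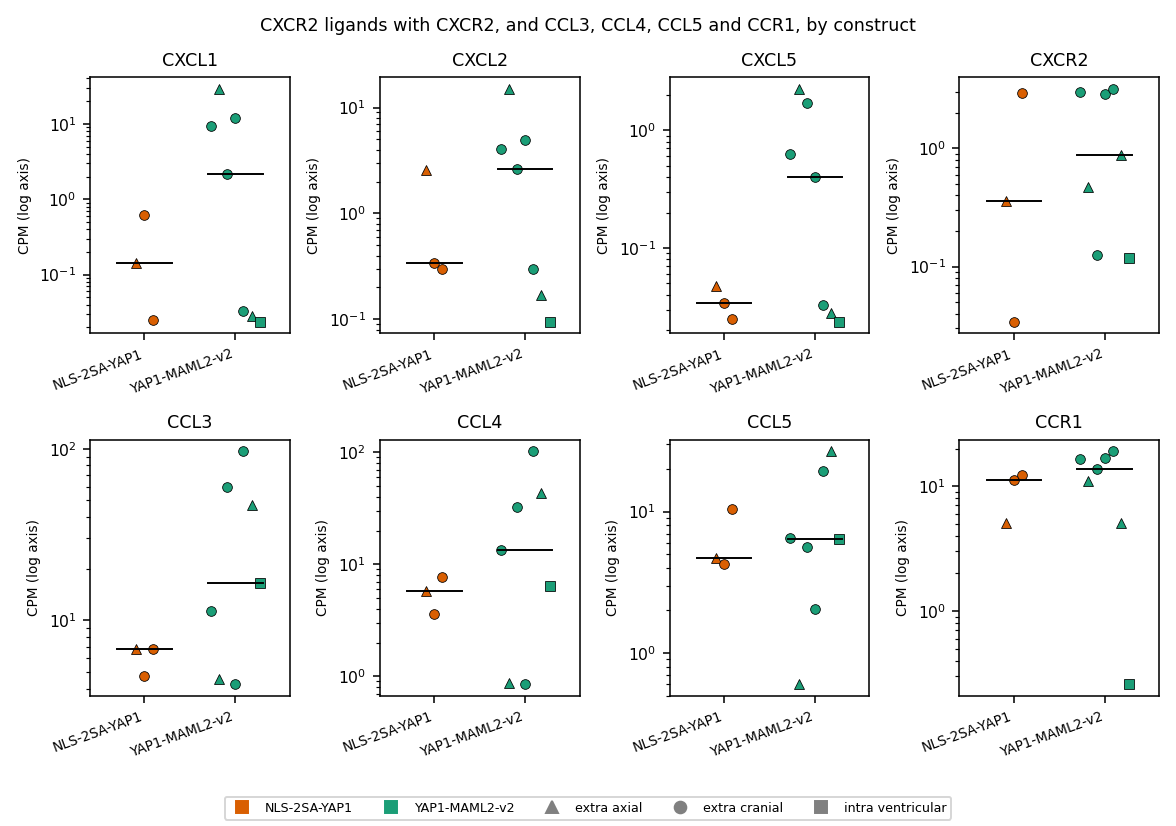
CPM on a log axis of CXCL1, CXCL2, CXCL5 and their receptor CXCR2 (upper row) and of CCL3, CCL4, CCL5 and CCR1 (lower row), by construct, with NLS-2SA-YAP1 on the left. Each point is 1 library, its shape gives the region and the bar is the group's median. CXCL1 reaches 28.9 CPM in YAP1-MAML2-v2 replicate 2, while 3 YAP1-MAML2-v2 libraries lie near or below the NLS-2SA-YAP1 points.

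CCL3, CCL4 and CCL5 draw macrophages and T cells, and CCR1 is a receptor of CCL3 and CCL5. CCL3 stood at 6.77, 4.75 and 6.81 CPM in NLS-2SA-YAP1 tumors, against 4.25 to 96.4 CPM in YAP1-MAML2-v2 tumors (median 16.4). CCL4 stood at 5.79, 3.62 and 7.67 CPM in NLS-2SA-YAP1 tumors, against 0.851 to 102 CPM in YAP1-MAML2-v2 tumors (median 13.4). Both were high in YAP1-MAML2-v2 replicates 5, 3 and 6 and low in replicates 2 and 4, which lay below every NLS-2SA-YAP1 tumor for both genes. The log2 fold change of CCL3 was -2.55 ± 1.09 (SE, edgeR unadjusted p = 0.0439, adjusted p = 0.368), and a fit with the replicate number as a block gave -1.22. For CCL4 it was -2.44 ± 1.45 (edgeR adjusted p = 0.507). CCL5 stood at 4.69, 4.27 and 10.4 CPM in NLS-2SA-YAP1 tumors, against 0.603 to 26.7 CPM in YAP1-MAML2-v2 tumors (median 6.37), with the top value in replicate 6.

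CCR1 itself stood at 5.05, 11.1 and 12.3 CPM in NLS-2SA-YAP1 tumors, against 0.261 to 19.0 CPM in YAP1-MAML2-v2 tumors (median 13.7). YAP1-MAML2-v2 replicate 5 was the highest library for CCR1, CCL3 and CCL4 together, and its macrophage list sum, 2621 CPM, was also the highest of the 10. The next highest sum, 2495 CPM, was in replicate 7, which had the lowest CCR1 of all libraries (0.261 CPM) and 6.39 CPM of CCL4. The 2 sums were made up differently. CD163 stood at 809.6 CPM in replicate 5 and at 17.9 CPM, its lowest value, in replicate 7. CSF1R stood at 222.5 CPM in replicate 5 and at 623.1 CPM, its highest value, in replicate 7. Similar sums therefore do not mean similar macrophage content. The part of that list in these values was not tested.

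CCL2 brings monocytes from the blood through CCR2. It stood at 20.4, 16.7 and 5.35 CPM in NLS-2SA-YAP1 tumors, against 0.603 to 83.7 CPM in YAP1-MAML2-v2 tumors (median 7.49). The top value, in replicate 3, was far above the next YAP1-MAML2-v2 value of 14.4 CPM. CCR2 stood at 0.622, 3.28 and 7.29 CPM in NLS-2SA-YAP1 tumors, against 0.208 to 3.77 CPM in YAP1-MAML2-v2 tumors (median 0.681), and the groups overlapped for both genes (edgeR adjusted p = 0.969 for CCL2 and 0.765 for CCR2). The highest CCL2 value met a CCR2 value of 1.72 CPM, while the highest CCR2 value, in NLS-2SA-YAP1 replicate 3, met 5.35 CPM of CCL2. CCL7, another CCR2 ligand, did not exceed 0.495 CPM. CCL8, which acts on CCR8 in mouse, stood at 0.12, 0.205 and 0.729 CPM in NLS-2SA-YAP1 tumors, against 0.0237 to 6.13 CPM in YAP1-MAML2-v2 tumors (median 0.397). CCR8 stood at 1.25, 0.888 and 3.17 CPM in NLS-2SA-YAP1 tumors, against 0.0524 to 5.56 CPM in YAP1-MAML2-v2 tumors (median 2.2), with overlap for both genes.

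CXCL9, CXCL10 and CXCL11 are interferon-induced ligands of CXCR3, a receptor of activated T and NK cells. CXCL9 stood at 2.08, 0.649 and 3.39 CPM in NLS-2SA-YAP1 tumors, against 0.0786 to 15.1 CPM in YAP1-MAML2-v2 tumors (median 2.71). CXCL10, whose promoter is printed above, stood at 17.4, 6.97 and 19.7 CPM in NLS-2SA-YAP1 tumors, against 0.105 to 23.8 CPM in YAP1-MAML2-v2 tumors (median 5.5). Both peaked in YAP1-MAML2-v2 replicate 6 and were lowest in replicate 2, and both overlapped between groups (edgeR adjusted p = 0.729 for CXCL9 and 0.806 for CXCL10). CXCL11 had another order, with 0.981, 0.137 and 0.251 CPM in NLS-2SA-YAP1 tumors, against 0.0262 to 7.55 CPM in YAP1-MAML2-v2 tumors (median 0.528), and was high in replicates 7 and 3. CXCR3 stood at 0.12, 0.239 and 0.427 CPM in NLS-2SA-YAP1 tumors, against 0.0262 to 1.24 CPM in YAP1-MAML2-v2 tumors (median 0.119). CXCR3 peaked in the same library as CXCL9 and CXCL10, replicate 6. In that library the T cell list summed to 241 CPM, against 57.7 to 131 CPM in NLS-2SA-YAP1 tumors and 16.5 to 162 CPM in the other YAP1-MAML2-v2 tumors. CD4 alone made up 189.7 of the 241 CPM. CD3E stood at 11.2 CPM there, against 1.63 to 5.53 CPM in NLS-2SA-YAP1 tumors and 0.21 to 8.77 CPM in the other YAP1-MAML2-v2 tumors. The part of the list was not tested.

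CXCL12 is the ligand of CXCR4 and of the scavenger ACKR3, and all of them were present in every tumor. CXCL12 stood at 38.0, 102 and 196 CPM in NLS-2SA-YAP1 tumors, against 8.37 to 232 CPM in YAP1-MAML2-v2 tumors (median 39.1). CXCR4 stood at 28.7, 20.3 and 69.0 CPM in NLS-2SA-YAP1 tumors, against 10.1 to 111 CPM in YAP1-MAML2-v2 tumors (median 50.4). ACKR3 stood at 90.9, 188 and 253 CPM in NLS-2SA-YAP1 tumors, against 6.16 to 174.5 CPM in YAP1-MAML2-v2 tumors (median 68.7). All 3 genes stayed above 1 CPM in every library and overlapped between groups. The log2 fold changes were 0.24 ± 0.86 for CXCL12, -0.61 ± 0.72 for CXCR4 and 1.17 ± 0.72 for ACKR3 (SE, edgeR adjusted p = 0.945, 0.774 and 0.516). YAP1-MAML2-v2 replicate 5 had the highest CXCL12, replicate 6 the highest CXCR4 and NLS-2SA-YAP1 replicate 3 the highest ACKR3. In YAP1-MAML2-v2 replicate 4, CXCL12 stood at 8.37 CPM with 84.9 CPM of ACKR3, whereas replicate 6 had 96.2 CPM of CXCL12 with 13.0 CPM of ACKR3.

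CX3CL1, or fractalkine, is a membrane-bound chemokine read by CX3CR1 on microglia, macrophages and monocytes. CX3CL1 stood at 18.8, 39.6 and 56.7 CPM in NLS-2SA-YAP1 tumors, against 5.5 to 44.5 CPM in YAP1-MAML2-v2 tumors (median 15.1). It averaged 38.4 ± 19.0 CPM in NLS-2SA-YAP1 tumors (SD, n = 3) and 18.8 ± 13.2 CPM in YAP1-MAML2-v2 tumors (SD, n = 7). It had the smallest unadjusted p among the members, with a log2 fold change of 1.32 ± 0.48 (SE, edgeR unadjusted p = 0.0211, adjusted p = 0.302), and the highest YAP1-MAML2-v2 value came from the intra ventricular library. CX3CR1 stood at 22.9, 41.6 and 13.2 CPM in NLS-2SA-YAP1 tumors, against 14.2 to 180.5 CPM in YAP1-MAML2-v2 tumors (median 26.1), with overlap and an edgeR adjusted p of 0.96.

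CXCL16 is a membrane-bound ligand made by macrophages and other cells, and its receptor CXCR6 marks T cell subsets. CXCL16 stood at 54.9, 37.1 and 72.3 CPM in NLS-2SA-YAP1 tumors, against 13.8 to 89.7 CPM in YAP1-MAML2-v2 tumors (median 50.6), a log2 fold change of -0.02 ± 0.52 (SE, edgeR adjusted p = 0.995). CXCR6 stood at 0.886, 0.615 and 1.05 CPM in NLS-2SA-YAP1 tumors, against 0.0524 to 5.001 CPM in YAP1-MAML2-v2 tumors (median 1.32). The groups overlapped for both genes, and the top CXCR6 values were in YAP1-MAML2-v2 replicates 6 and 5. CXCL14, a chemokine of epithelia and stroma, stood at 0.287, 13.5 and 8.67 CPM in NLS-2SA-YAP1 tumors, against 0.0567 to 1.91 CPM in YAP1-MAML2-v2 tumors (median 0.45). Its log2 fold change was 3.74 ± 1.71 (SE, edgeR unadjusted p = 0.0545, adjusted p = 0.392). The high pair, NLS-2SA-YAP1 replicates 2 and 3, were both extra cranial, and replicate 1, which was extra axial, lay below the YAP1-MAML2-v2 median. The skeletal muscle list summed to 71.1 and 245.5 CPM in that pair, against 1.03 CPM in NLS-2SA-YAP1 replicate 1, 49.0 CPM in YAP1-MAML2-v2 replicate 3 and at most 2.24 CPM in the other YAP1-MAML2-v2 tumors. Its part in the CXCL14 values was not tested.

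**Figure D4:**
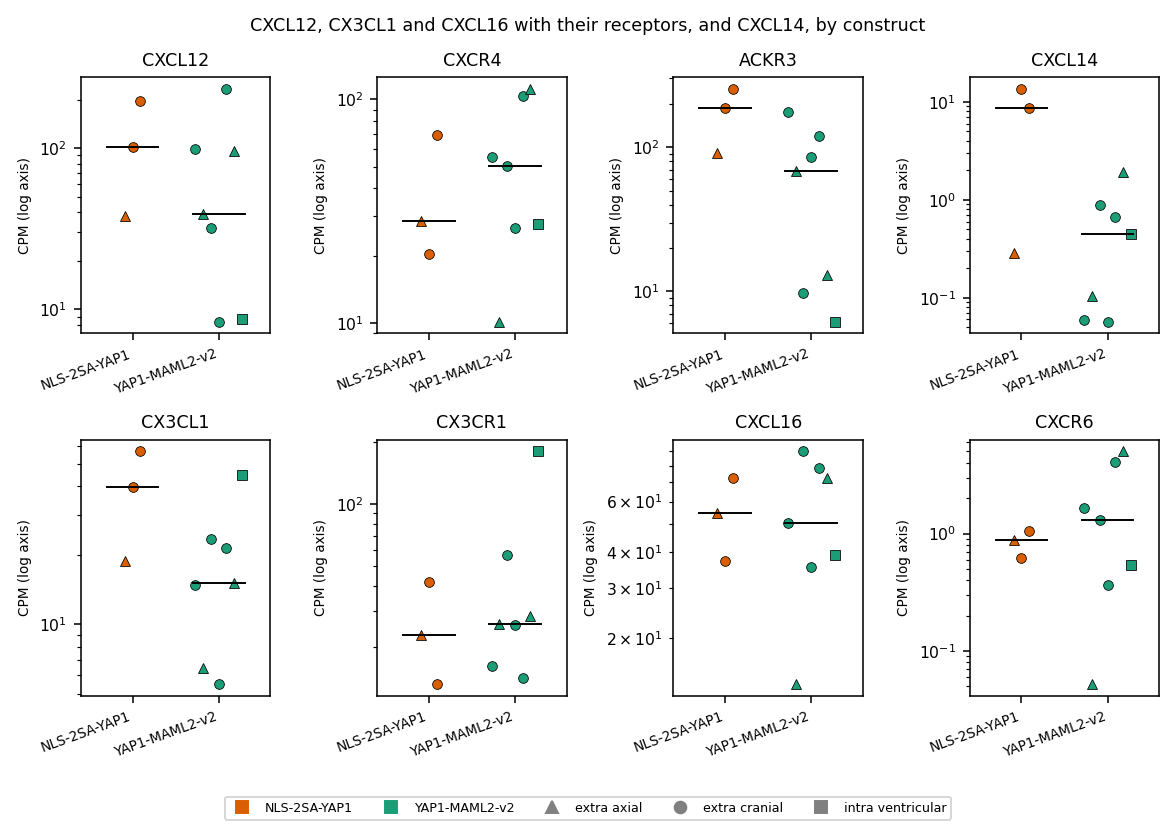
CPM on a log axis of CXCL12 with CXCR4 and ACKR3, of CXCL14, of CX3CL1 with CX3CR1 and of CXCL16 with CXCR6, by construct, with NLS-2SA-YAP1 on the left. Points are libraries, shapes give the region and bars are medians. CXCL14 is at 13.5 and 8.67 CPM in the pair of extra cranial NLS-2SA-YAP1 tumors and at most 1.91 CPM elsewhere.

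CCL24, an eosinophil attractant and ligand of CCR3, differed strongly between single tumors of 1 group. It stood at 4.04, 0.239 and 3.67 CPM in NLS-2SA-YAP1 tumors, against 0.101 to 99.2 CPM in YAP1-MAML2-v2 tumors (median 9.19). Replicates 1, 5 and 4 of YAP1-MAML2-v2, all extra cranial, held the top values of 99.2, 50.7 and 35.8 CPM, while replicate 3, also extra cranial, held the lowest. Its fitted log2 difference was -3.06 ± 1.84 (SE, adjusted p = 0.515 in edgeR). CCR3 did not exceed 0.528 CPM, and of its other ligands CCL11 did not exceed 0.066 CPM and CCL26 was at 0 throughout.

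CCL20, the ligand of CCR6, was present in 1 tumor, YAP1-MAML2-v2 replicate 3, at 15.6 CPM, and was deposited at 0 or 1 in the other 9 libraries. CCR6 stood at 1.68, 1.37 and 4.57 CPM in NLS-2SA-YAP1 tumors, against 0.105 to 22.3 CPM in YAP1-MAML2-v2 tumors (median 0.89). Its highest value was in the intra ventricular library, where CCL20 was at 0. The CCR10 ligands differed in kind. CCL27 was even, at 4.04, 4.95 and 3.92 CPM in NLS-2SA-YAP1 tumors, against 2.28 to 4.72 CPM in YAP1-MAML2-v2 tumors (median 3.67), but its symbol matched no mouse gene by name. CCL28, of mucosal epithelia, stood at 0.0239, 8.92 and 0 CPM in NLS-2SA-YAP1 tumors, against 0 to 29.1 CPM in YAP1-MAML2-v2 tumors (median 0). CCR10 stood at 2.18, 0 and 7.34 CPM in NLS-2SA-YAP1 tumors, against 0.131 to 3.12 CPM in YAP1-MAML2-v2 tumors (median 1.66).

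Lymphoid chemokines were low. CCL19, which guides T and dendritic cells through CCR7, stood at 0.0239, 0.205 and 0.126 CPM in NLS-2SA-YAP1 tumors, against 0.0237 to 2.33 CPM in YAP1-MAML2-v2 tumors (median 0.714), and its scavenger ACKR4 at 5.65, 0 and 0.0251 CPM, against 0 to 2.88 CPM (median 0.0298). CCR7 reached 1.21 CPM in NLS-2SA-YAP1 tumors and 1.43 CPM in YAP1-MAML2-v2 tumors, and CCL21 was at 0 throughout. CCR9, a receptor of gut-homing T cells and of some dendritic cells, stood at 0.0479, 1.57 and 2.59 CPM in NLS-2SA-YAP1 tumors, against 0.0253 to 8.57 CPM in YAP1-MAML2-v2 tumors (median 0.0567), while its ligand CCL25 did not exceed 0.503 CPM. The groups overlapped for each of these genes that was tested. CCR4 is carried by helper and regulatory T cells. The CCR4 ligands CCL17 and CCL22 peaked at 1.28 and 1.56 CPM in NLS-2SA-YAP1 tumors, against 0.528 and 1.43 CPM in YAP1-MAML2-v2 tumors. CCR4 itself peaked at 0.729 CPM in NLS-2SA-YAP1 tumors, against 1.29 CPM in YAP1-MAML2-v2 tumors. XCL1, which acts on cross-presenting dendritic cells, peaked at 0.302 CPM in NLS-2SA-YAP1 tumors, against 1.6 CPM in YAP1-MAML2-v2 tumors. Its receptor XCR1 peaked at 0.0683 CPM in NLS-2SA-YAP1 tumors, against 1.71 CPM in YAP1-MAML2-v2 tumors. YAP1-MAML2-v2 replicate 6 was the highest library for CCL19, CCR7, CCR8, CCR9, CCR4, XCL1 and XCR1. Its dendritic cell list sum, 86.6 CPM, was also the highest, against 28.4 to 72.2 CPM in NLS-2SA-YAP1 tumors and 20.9 to 60.4 CPM in the other YAP1-MAML2-v2 tumors. Not all genes of the list peaked there. CLEC9A did, at 26.1 CPM. ZBTB46 stood at 25.8 CPM there, against 42.6 CPM in NLS-2SA-YAP1 replicate 2, and ITGAE at 20.5 CPM, against 21.1 CPM in NLS-2SA-YAP1 replicate 3. The part of that list was not tested.

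The platelet chemokine PF4 peaked at 0.547 CPM in NLS-2SA-YAP1 tumors, against 1.6 CPM in YAP1-MAML2-v2 tumors. CXCL13, the B cell attractant, reached 2.75 CPM in YAP1-MAML2-v2 replicate 7 and at most 0.287 CPM elsewhere, and its receptor CXCR5 did not exceed 0.702 CPM. CXCL17 and CXCR1 never exceeded a deposited value of 1, and CCL1 and CCL23 peaked at 0.0503 and 0.462 CPM. Among the atypical receptors, ACKR1 carries chemokines on venules and red cells, and ACKR2 takes up inflammatory CC chemokines. ACKR1 stood at 0.503, 1.98 and 2.46 CPM in NLS-2SA-YAP1 tumors, against 0.0284 to 9.07 CPM in YAP1-MAML2-v2 tumors (median 0.824). ACKR2 stood at 1.08, 3.21 and 1.36 CPM in NLS-2SA-YAP1 tumors, against 1.13 to 13.4 CPM in YAP1-MAML2-v2 tumors (median 1.39). The top ACKR2 value was in replicate 3, which also had the top CCL2, a ligand that ACKR2 binds.

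Set side by side, 42 ligand-receptor pairs of textbook knowledge had both sides in the files, and 29 had both sides tested. In 34 pairs at least 1 side had a mean of at least 1 CPM, and in 7 of those 34 the same library was highest for ligand and receptor. Between constructs, both sides had a higher fitted value in NLS-2SA-YAP1 tumors in 6 pairs and both a lower one in 14. Between regions, both sides were higher in extra axial tumors in 2 pairs and both lower in 12. None had a member past the edgeR threshold. Members such as CXCR2 and CCL5 recur across pairs, so the pairs are not separate observations.

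Between source regions, 0 of 42 members passed in edgeR's test (0.0% of all genes did), 0 in limma and 0 in DESeq2, where 0.23% of all genes passed. At an unadjusted p under 0.05 there were 2 members (4.76%), CCL28 and CCR1, against 3.01% of all genes. In extra axial tumors 18 members had a higher and 24 a lower fitted value than in extra cranial tumors, with a median of -0.0994 against -0.0079 over all genes. The groups did not overlap for CCR1 and ACKR2, both lower in extra axial tumors. That held for 0.46% of all genes with extra axial lower and for 0.387% with it higher. CCR1 stood at 5.05 CPM in NLS-2SA-YAP1 replicate 1 and at 11.0 and 5.11 CPM in YAP1-MAML2-v2 replicates 2 and 6 (extra axial), against 11.1 to 19.0 CPM in extra cranial tumors (median 15.1). Within constructs the order was the same, since the lowest extra cranial values were 11.1 CPM for NLS-2SA-YAP1 and 13.7 CPM for YAP1-MAML2-v2. CCR1 had a log2 fold change of -1.09 ± 0.44 (SE, edgeR unadjusted p = 0.0323, adjusted p = 1.0).

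ACKR2 stood at 1.08, 1.13 and 1.15 CPM in extra axial tumors, against 1.34 to 13.4 CPM in extra cranial tumors (median 1.8). The gap between the groups was narrow, and the log2 fold change of -1.68 ± 1.03 (SE, edgeR adjusted p = 1.0) became -0.72 without YAP1-MAML2-v2 replicate 3. The macrophage list summed to 656.5, 702 and 1368 CPM in extra axial tumors and to 841 to 2621 CPM in extra cranial tumors, and its part in the CCR1 values was not tested.

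CXCL2 stood at 2.58, 14.97 and 0.169 CPM in extra axial tumors, against 0.297 to 4.91 CPM in extra cranial tumors (median 1.47). The extra axial values spanned the whole extra cranial range, and the log2 fold change of 1.95 ± 1.19 (SE, edgeR adjusted p = 1.0) became 1.05 without YAP1-MAML2-v2 replicate 2. CCL28 was deposited at 0 or 1 in all 3 extra axial tumors and in 3 of the 6 extra cranial tumors, and stood at 8.33, 8.92 and 14.2 CPM in the other 3. Its log2 fold change of -8.82 ± 3.46 (SE, edgeR unadjusted p = 0.0314, adjusted p = 1.0) depends on how 0 is treated and should not be read as a size.

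**Figure D5:**
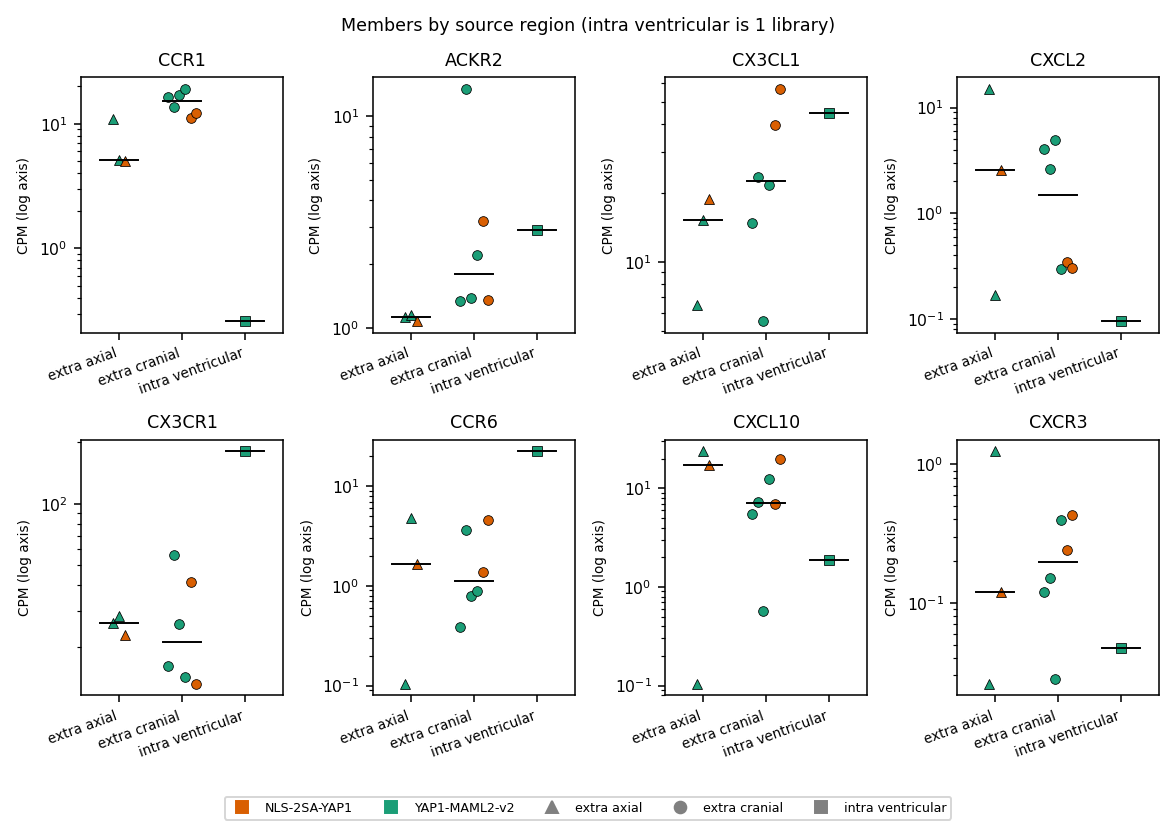
CPM on a log axis of 8 members by source region, with extra axial left of extra cranial and the single intra ventricular library at the right. Points are libraries, colors give the construct and bars are medians. The 3 extra axial CCR1 values, at most 11.0 CPM, lie below the 6 extra cranial values, and the intra ventricular library has the lowest CCR1 and the highest CX3CR1 and CCR6.

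The intra ventricular tumor, YAP1-MAML2-v2 replicate 7, differed from the other 9 libraries in several members, with no replicate to set a spread. It had the highest CX3CR1 (180.5 CPM), CCR6 (22.3 CPM), CCL28 (29.1 CPM), ACKR1 (9.07 CPM) and CXCL11 (7.55 CPM), and the lowest CCR1 (0.261 CPM) and ACKR3 (6.16 CPM). The microglia list (5 of 6 genes in the files) summed to 1020 CPM there, against 178.6 to 275.5 CPM in the other 9 libraries, and P2RY12 stood at 162.9 CPM against at most 6.95 CPM. The astrocyte list summed to 2039 CPM, against 48.6 to 184.6 CPM elsewhere. Endothelial genes summed to 980 CPM, against 158 to 611 CPM elsewhere. The part of these lists in the CX3CR1, CCR6 and ACKR1 values was not tested.

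Whether a construct difference itself differed between regions was tested in the 9 extra axial and extra cranial libraries, with a single extra axial NLS-2SA-YAP1 library. At an unadjusted p under 0.05 in edgeR's test there were 0 members, against 7.14% of all genes. After adjustment 0 members passed, with adjusted p-values from 0.721 to 1.0, where 0.00741% of all genes passed. The same count of 0 members came from limma and DESeq2.

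Other genes of chemokine signaling, from textbook lists, did not pass either. Of 33 tested genes of intracellular signaling, 13 had a higher and 20 a lower fitted value in NLS-2SA-YAP1 tumors (median log2 fold change -0.14). Of 14 tested inducers such as NFKBIA and CSF1, 4 were higher and 10 lower (median -0.59), and of 13 related ligands, receptors and proteases such as CD74, ADAM10 and RARRES2, 5 were higher and 8 lower (median -0.23). In extra axial tumors 5 of the 33 signaling genes had a higher and 28 a lower fitted value than in extra cranial tumors (median -0.18). Over all genes tested, 6766 were higher and 6941 lower between regions, and 6632 higher and 7075 lower between constructs. Over these 60 tested genes edgeR called 0 in either comparison, while 5 (8.33%) had an unadjusted p under 0.05 between constructs and 0 between regions. Of 85 tested markers in 19 cell type lists, 0 passed in either comparison, with 8 (9.41%) and 4 (4.71%) at an unadjusted p under 0.05. Over all genes tested the shares at that unadjusted p were 13.1% between constructs and 3.01% between regions.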

How the data were processed

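RNA-seq libraries of 10 tumors were analysed. The authors' deposited values were handled as estimated counts. The submitters' processing notes name HTSeq and mm10. The sources used here do not give the aligner, versions or any later adjustment of the values. The design had assumed plain counts. Being whole, the values needed no rounding for that test. Groups came from the labels.

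Genes were filtered with filterByExpr by construct (minimum count 10), leaving 13707 genes, with TMM scaling. Differences were tested by robust quasi-likelihood F-tests in edgeR 4.0.16 under R 4.3.3, on 1 model of construct plus region over the 10 libraries. It leaves 6 residual degrees of freedom, and the intra ventricular library has a term of its own. Fold changes are NLS-2SA-YAP1 over YAP1-MAML2-v2 and extra axial over extra cranial. Alternatives were DESeq2 1.42.0, limma 3.58.1, another scaling, no filter, no region term, extra cranial libraries only, a replicate block and leaving out each library. The steps were tested on simulated data.

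Members, pairs and lists were chosen with earlier results of these data known. All members may be named, except that 1 member and 1 listed gene are not reported here. A fold with its SE is given for the 5 members of smallest unadjusted p per comparison (4 printed between regions) and, as values chosen after they were seen, for CCL4, CCL24, CXCL12, CXCR4, ACKR3 and CXCL16. Of each list, up to 3 genes of largest mean CPM are examples, and CD68, C1QA, P2RY12, S100A8 and IL6 were chosen after their values were seen. CPM per kb used the merged length of all exons of a gene in GENCODE M21, not the length of 1 transcript. CCL21, CCL23, CCL27 and CXCL11 had no such length and were not ranked. CCL21 and CCL27 each have near-identical copies in the mouse, and the sources used here do not say how reads shared by copies were assigned, so both are uncertain.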

Additional observations from a re-analysis of the deposited data

Results flagged for a closer look

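In 20 of 64 groups, from 16 members, the highest library stood far from the others by Dixon's criterion. The groups were the 7 YAP1-MAML2-v2 and the 6 extra cranial libraries, taken for each of 32 members. Chance meets the criterion in about 1 group in 20 where values are normally distributed. CPM are skewed. Over all 12931 genes with a mean of at least 1 CPM, the highest library met the criterion for 20.2% among YAP1-MAML2-v2 tumors and for 13.7% among extra cranial tumors. The 20 are to be read against those shares. Among the 32 members it was met by 12 (37.5%) and 8 (25.0%). The groups share 4 libraries, and 4 members (ACKR2, CCL2, CCL20 and CCL4) count in both. The filter on the mean includes the highest library itself. CCL20, ACKR1 and CCR9 passed it only through that library (99.2%, 50.6% and 51.5% of their summed CPM). Their results partly follow from the filter. Of the 20, 7 came from YAP1-MAML2-v2 replicate 3, 5 from replicate 5, 3 from replicate 7, 2 each from replicates 2 and 6, and 1 from NLS-2SA-YAP1 replicate 3.

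In YAP1-MAML2-v2 replicate 3, among YAP1-MAML2-v2 tumors and among extra cranial tumors alike, CCL2 stood at 83.7 CPM (next 14.4 and 16.7 CPM), ACKR2 at 13.4 CPM (next 2.89 and 3.21 CPM) and CCL20 at 15.6 CPM (next 0.033 and 0.0342 CPM). CXCL11 stood apart there among extra cranial tumors only, at 5.21 CPM (next 0.528 CPM).

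In YAP1-MAML2-v2 replicate 5, CCL4 stood at 102 CPM (next 43.2 CPM among YAP1-MAML2-v2 and 32.8 CPM among extra cranial tumors). CXCL12 stood at 232 CPM among YAP1-MAML2-v2 tumors (next 98.6 CPM). Among extra cranial tumors CXCL9 stood at 11.7 CPM (next 4.4 CPM) and CXCR6 at 4.06 CPM (next 1.67 CPM).

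Among YAP1-MAML2-v2 tumors, the intra ventricular replicate 7 stood apart for CX3CR1 at 180.5 CPM (next 56.5 CPM), CCR6 at 22.3 CPM (next 4.8 CPM) and ACKR1 at 9.07 CPM (next 1.69 CPM). Replicate 2 did so for CXCL1 at 28.9 CPM (next 11.8 CPM) and CXCL2 at 14.97 CPM (next 4.91 CPM), and replicate 6 for CCR8 at 5.56 CPM (next 2.33 CPM) and CCR9 at 8.57 CPM (next 3.66 CPM). NLS-2SA-YAP1 replicate 3 stood apart for CCR10 among extra cranial tumors at 7.34 CPM (next 2.23 CPM).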

How the results depend on the processing

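Between constructs, edgeR called 2 genes, and 4 with no filter, 4 in extra cranial libraries only, 4 in limma, 685 in DESeq2 and 24 with the replicate number as a block, which left 1 residual degree of freedom. Leaving out single libraries gave 0 to 2 (0 without YAP1-MAML2-v2 replicates 2, 4 or 6 or NLS-2SA-YAP1 replicates 2 or 3, and 1 without YAP1-MAML2-v2 replicates 3 or 5). Members called stayed at 0 except for 1 in DESeq2, CXCL1 (-4.87, adjusted p = 0.0312). Between regions 0 genes were called, and 8 with the replicate block, 31 in DESeq2 and 1 without YAP1-MAML2-v2 replicate 6 or NLS-2SA-YAP1 replicate 1 (range 0 to 1), with 0 members under every alternative run. The interaction called 1 gene, 4 in limma, 204 in DESeq2 and 0 to 3 without single libraries (3 without YAP1-MAML2-v2 replicate 1), with 0 members under all 12 alternatives, which were chosen after seeing the data.

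The named members kept their sign under every alternative run. CX3CL1 ranged over 1.03 to 1.55 (lowest adjusted p 0.154), CXCL14 over 2.99 to 4.71 (0.0729), CCL3 over -2.92 to -1.22 (0.0605), CXCL5 over -5.13 to -2.34 (0.323) and CXCL1 over -7.07 to -2.98 (0.0312). CCR1 ranged over -1.47 to -0.85, ACKR2 over -2.07 to -0.72, CXCL2 over 0.81 to 2.66 and CCL28 over -10.69 to -3.6.

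Same-numbered libraries of the constructs deviated together with r = 0.167, 0.337 and -0.0723, so the numbers were not taken to pair samples. YAP1-MAML2-v2 replicates 6 and 7 share a number in the names of their deposits, and the labels do not say whether they come from 1 animal. Depth is unknown, so no limit of detection is given.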

Other observations

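IL6, which belongs to the list of inducers and was chosen after its values were seen, stood at 104.5 CPM in YAP1-MAML2-v2 replicate 3, the library with the highest CCL2, CCL20 and ACKR2, against at most 9.86 CPM in the other 9 libraries. CCL2 and CCL20 were therefore high in the same tumor as IL6, and no test was made of this single library.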
